A study of Mus musculus with 14 samples.

Results

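The genes described here are the Hox genes of the mouse, the homeobox transcription factors that lie in the Hoxa, Hoxb, Hoxc and Hoxd clusters. They were taken by name, as every gene whose symbol is Hoxa, Hoxb, Hoxc or Hoxd followed by its paralog number. The rule found 39 genes among the 55427 genes of the annotated table, and it used no measured value. The clusters span chr6:52155590-52260880 (Hoxa, 11 genes, minus strand), chr11:96194316-96368256 (Hoxb, 10 genes, plus strand), chr15:102921103-103036852 (Hoxc, 9 genes, plus strand) and chr2:74668310-74765142 (Hoxd, 9 genes, plus strand) in mm10.

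Hox proteins bind DNA through a homeodomain, usually together with the TALE homeodomain proteins Pbx and Meis, and give cells their position along the body and limb axes. Within a cluster the order of the genes follows the order in which they are switched on along these axes, so that low paralog numbers mark anterior positions and high numbers posterior and distal ones. In the limb, paralogs 9 and 10 are known for the upper segment that holds the femur, paralog 11 for the segment below it and paralog 13 for the hand and foot. Hox expression of this kind is retained as a positional memory in adult skeletal stromal cells, and Polycomb and Trithorax proteins keep the genes off or on.

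The 14 libraries were cultured clones of tdTomato+ skeletal cells from femur bone marrow, sequenced as bulk RNA. Fgfr3-WT (P23) clones (n = 5) came from Fgfr3-creER; R26R(tdTomato/+) mice at postnatal day 23, Fgfr3-p53 cKO (P28) clones (n = 5) from Fgfr3-creER; Trp53fl/fl; R26R(tdTomato/+) mice at postnatal day 28, and Fgfr3-p53 cKO (P4M) clones (n = 4) from mice of the latter genotype at 4 months. Tamoxifen was given at postnatal day 21 in each group, so that creER, expressed from Fgfr3, labelled Fgfr3-expressing cells and their descendants in each group and deleted Trp53 only in the cKO groups. Each clone grew from 1 cell and was collected, per the labels, at passage 8, or at passage 6 to 8 for P4M. The clones are therefore those that survived in culture. The study reports that cKO clones grew faster than Fgfr3-WT clones and that more of them could be passaged. Fgfr3-WT clones took longer to reach passage 8. Time in culture and survival in it therefore cannot be told apart from genotype. The labels do not tie clones to mice, and the study counts these samples both as clones and as mice. The p-values therefore measure the spread between clones, which is a spread between animals only if the count as mice holds. The sample names begin with 1303 for every Fgfr3-WT clone and with 2963 for every cKO clone, so genotype and this number cannot be told apart, whereas the P28 and P4M clones share it. The study's methods give the wider passage range for both cKO groups, so it is not settled whether passage differed between P28 and P4M, and a difference in passage could not be told apart from age. Total counts were 25688946 to 38958693 per Fgfr3-WT clone, 37606033 to 48648618 per P28 clone and 43757832 to 52857424 per P4M clone. A count of 0 allows up to 3 counts, which is 0.0853 to 0.121 CPM (counts scaled to a common library total) in a Fgfr3-WT library, for counting error only.

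Trp53, the deleted gene, matched the labels in every clone. Its level was 55.4, 49.9, 68.1, 50.4 and 51.1 CPM in Fgfr3-WT replicates 1 to 5, 2.47, 2.84, 2.36, 2.48 and 2.18 CPM in P28 replicates 1 to 5 and 2.08, 2.37, 1.72 and 2.22 CPM in P4M replicates 1 to 4. All cKO clones lay below all Fgfr3-WT clones, and the log2 fold change over all cKO clones was -4.59 ± 0.12 (SE) (adjusted p = 7.46e-11, edgeR). Of the 7 markers of the mesenchyme of the limb skeleton, 6 were above 1 CPM in every clone. Pdgfrb, a receptor of stromal cells, was at 233 to 620.2 CPM over the 14 clones, Twist1, a mesenchymal transcription factor, at 38.1 to 64.4 CPM in Fgfr3-WT and Runx2, the factor of the osteoblast lineage, at 35.3 to 93.9 CPM in Fgfr3-WT clones. The exception was Col1a2, which encodes a chain of type I collagen and had the highest mean CPM of the list. Of 10 haematopoietic markers the leukocyte antigen Ptprc was at 0.154 CPM or less and the T cell gene Cd3e at 0.0404 CPM or less in every clone. The lysosomal gene Cd68 was the highest of them in CPM in every clone but P28 replicate 1. Cd68 was at 3.55 to 54.3 CPM in Fgfr3-WT, 0.989 to 2.10 CPM in P28 and 1.20 to 5.61 CPM in P4M clones. P4M replicate 3 lay within the Fgfr3-WT range. The summed level of the 10 genes was 3.94 to 54.6 CPM in Fgfr3-WT and 1.77 to 6.95 CPM in cKO clones. Among 5 endothelial markers Cdh5 had no count in any clone, and the receptor Kdr, the highest in CPM in the cKO clones, reached 12.6 CPM in P4M replicate 3.

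In Col1a2 Fgfr3-WT replicates 1 to 4 stood apart from replicate 5 and from every cKO clone. Col1a2 was at 0.0326, 0.841, 0.485 and 0.796 CPM in Fgfr3-WT replicates 1 to 4 but at 4352 CPM in replicate 5 and at 7788 to 33235 CPM in the cKO clones. The labels do not say whether the Fgfr3-WT clones are of the same kind of cell, and the part of this difference in the Hox results was not tested. The hindlimb factor Pitx1 was at 81.5, 57.4, 96.7, 90.3 and 30.7 CPM in Fgfr3-WT, at 0.0645, 0.0478, 20.4, 84.1 and 84.1 CPM in P28 and at 46.0, 26.5, 57.4 and 31.9 CPM in P4M clones. P28 replicates 1 and 2 thus had almost no transcript of a gene that defines the hindlimb, to which the femur belongs. Isl1, which acts upstream of hindlimb outgrowth, was at 10.97, 7.27, 2.91, 6.00 and 0.989 CPM in Fgfr3-WT, 26.4, 21.2, 19.0, 0.181 and 1.82 CPM in P28 and 5.79, 0.819, 0.0197 and 0.939 CPM in P4M clones, so that P28 replicates 1 to 3, which held the least Pitx1 of all clones, held the most Isl1. The hindlimb factor Tbx4 was at 0.709 CPM or less throughout, and the forelimb factor Tbx5 was detected only in P4M replicate 1, at 0.0231 CPM. The calls against WT, the shares of the clusters and the spread within Fgfr3-WT are given with and without replicate 5 below.

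Of the 39 Hox genes, 36 had an entry in the count table and 32 passed the filter on low counts and were tested. Hoxb1, Hoxd11 and Hoxd12 had no entry there, and Hoxb2, Hoxd1, Hoxd10 and Hoxd13 had too few counts. On the scale of transcripts relative to their total, adjusted for length (TPM), on which genes can be compared, the Hox genes summed to 487 ± 72.4 TPM (SD, n = 5) in Fgfr3-WT, 374 ± 54.2 TPM (n = 5) in P28 and 197 ± 24.0 TPM (n = 4) in P4M clones. The P4M clones, at 168 to 219.6 TPM, lay below all others, while the Fgfr3-WT clones, at 407 to 591 TPM, and the P28 clones, at 315 to 453 TPM, overlapped. On the CPM scale, which does not adjust for length, the Hox genes summed to 535 to 727 CPM in Fgfr3-WT, 312 to 469 CPM in P28 and 203 to 274 CPM in P4M clones, and no groups overlapped. Posterior genes made up most of this sum. Averaged over the 14 clones, Hoxa10 had the highest level at 91.7 TPM, followed by Hoxc10 at 53.6, Hoxa11 at 41.9, Hoxa9 at 41.8 and Hoxc6 at 30.9 TPM. Paralogs 9 to 11 together held 76.0 ± 8.62% of the Hox TPM in Fgfr3-WT, 62.2 ± 8.91% in P28 and 66.0 ± 2.92% in P4M clones (SD), and paralogs 1 to 4 held 5.31 ± 2.46%, 5.48 ± 1.24% and 8.97 ± 1.17%.

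**Figure D1:**
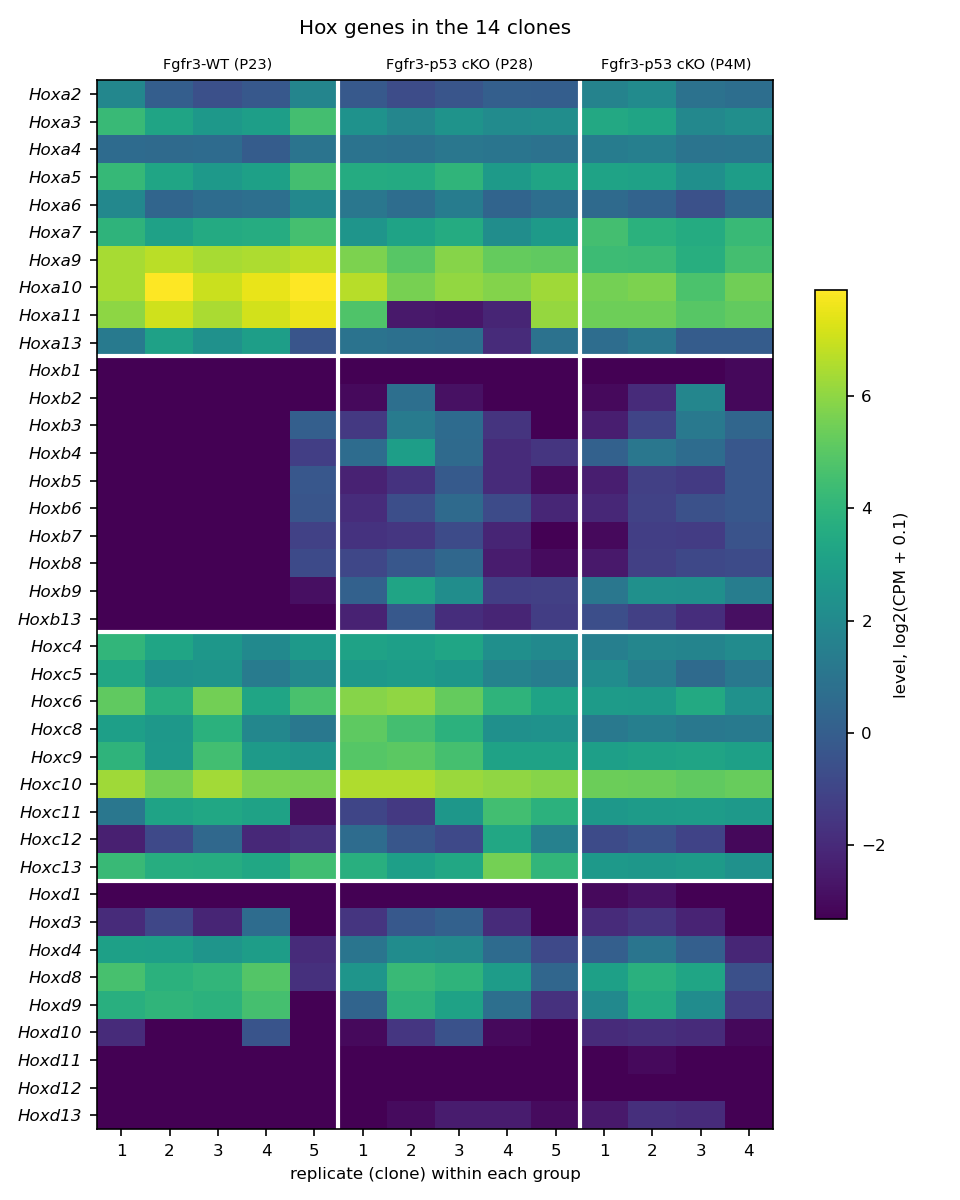
Level of the Hox genes reported here in each of the 14 clones, as log2(CPM + 0.1), with genes in rows by cluster and paralog number and clones in columns by group. The Hoxb block is empty in Fgfr3-WT replicates 1 to 4, Hoxa11 is dark in P28 replicates 2 to 4, and Hoxd4, Hoxd8 and Hoxd9 are dark in Fgfr3-WT replicate 5.

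The clusters contributed unequally, and their balance differed between clones. Hoxa held 70.3 ± 12.2% of the Hox TPM in Fgfr3-WT, 42.8 ± 12.9% in P28 and 58.6 ± 7.48% in P4M clones (SD). Hoxc held 24.2 ± 10.8%, 51.6 ± 9.66% and 33.0 ± 4.51% in the same order. The Hoxd share was 5.41 ± 3.41%, 3.97 ± 3.29% and 5.11 ± 3.72%, and the Hoxb share was 0.0863 ± 0.193%, 1.66 ± 1.74% and 3.21 ± 1.88%. Without Fgfr3-WT replicate 5 the Fgfr3-WT shares were 67.0 ± 11.2% for Hoxa, 26.2 ± 11.4% for Hoxc, 6.75 ± 1.86% for Hoxd and 0% for Hoxb (n = 4). The summed level of a cluster did not follow the same order in each case. Summed Hoxa TPM was 346 ± 103 in Fgfr3-WT, 159 ± 45.8 in P28 and 116 ± 24.5 in P4M, whereas summed Hoxc TPM was 115 ± 45.8, 194 ± 49.0 and 64.4 ± 2.71.

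**Figure D2:**
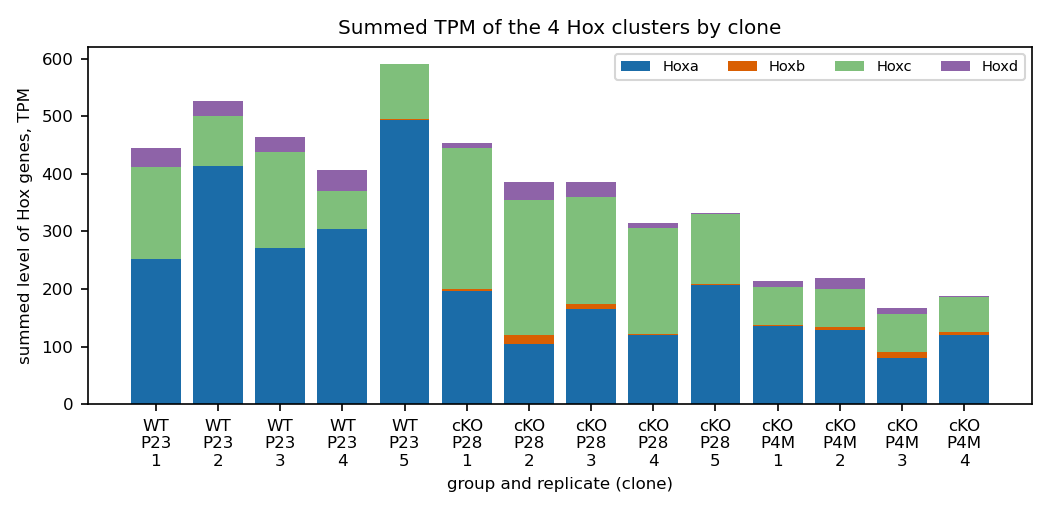
Summed TPM of the Hox genes of each cluster (stacked bars, 1 bar per clone). Bars reach 407 to 591 TPM in Fgfr3-WT, 315 to 453 TPM in P28 and 168 to 219.6 TPM in P4M clones. The Hoxc portion is on average widest in P28, where it overlaps that of Fgfr3-WT clones.

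The first question was which Hox genes differed between p53-deleted and control clones. With edgeR and Benjamini-Hochberg adjustment at 0.05 over 17358 genes, 9 of the 32 tested Hox genes were called in P28 against WT, where 38.9% of all tested genes were called. In P4M against WT 12 of 32 were called, where 45.9% of all genes were. When all 9 cKO clones were set against WT, 10 of 32 Hox genes were called beside 48.8% of all genes, and 15 of 32 differed among the 3 groups beside 50.6%. The order of these shares depended on the fit, since DESeq2 called 15 of 34 Hox genes in P4M against WT beside 42.1% of all genes. Both cKO groups were compared with the same Fgfr3-WT clones, so their results are not independent of each other. Genes called higher were Hoxb4, Hoxb9, Hoxb13 and Hoxc12 in P28 (background 19.2%) and Hoxa4, Hoxb4, Hoxb9 and Hoxb13 in P4M (22.3%). Genes called lower were Hoxa3, Hoxa7, Hoxa9, Hoxa10 and Hoxa13 in P28 (19.7%) and Hoxa6, Hoxa9, Hoxa10, Hoxc4, Hoxc6, Hoxc10, Hoxc13 and Hoxd4 in P4M (23.6%). Without Fgfr3-WT replicate 5 the counts were 12 in P28 (background 39.0%), 17 in P4M (44.8%), 15 in all cKO (47.2%) and 22 among the groups (50.2%). Hoxb3, Hoxb5, Hoxb6, Hoxb7 and Hoxb8 were then among the genes called higher in each cKO group. Those Hoxb genes had 0 counts in every remaining WT clone and passed the filter only through the cKO clones, so their calls add no support to these counts. A fit on P28 and WT alone tested 24 Hox genes and called 4, beside 34.0% of all genes, namely Hoxa3, Hoxa9, Hoxa10 and Hoxb9. Of the Hox genes, Hoxa3 and Hoxa9 were lower (background 11.5%) and Hoxb9 and Hoxb13 higher (13.0%) in every P28 than in every WT clone, and Hoxa9, Hoxa10, Hoxa11, Hoxc10 and Hoxc13 were lower (15.7%) and Hoxa4, Hoxb4, Hoxb9 and Hoxb13 higher (17.8%) in every P4M clone. The Hox genes called in all cKO against WT were Hoxa4, Hoxb4, Hoxb9 and Hoxb13, higher (background 23.1%), and Hoxa3, Hoxa9, Hoxa10, Hoxa13, Hoxc4 and Hoxd4, lower (25.7%). Of these the call of Hoxa4 was lost in 11 of the 14 fits without 1 clone (adjusted p up to 0.0962), that of Hoxd4 in 9 of the 14 (up to 0.0735) and that of Hoxa13 in 1 of the 14 (0.0522), with Hoxc4 given below. Hoxb4, Hoxb9 and Hoxb13 passed the filter on low counts through the cKO clones in which they were high, so their calls add no support to these counts. In these bulk libraries fewer cells of a type and less RNA per cell cannot be told apart.

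**Figure D3:**
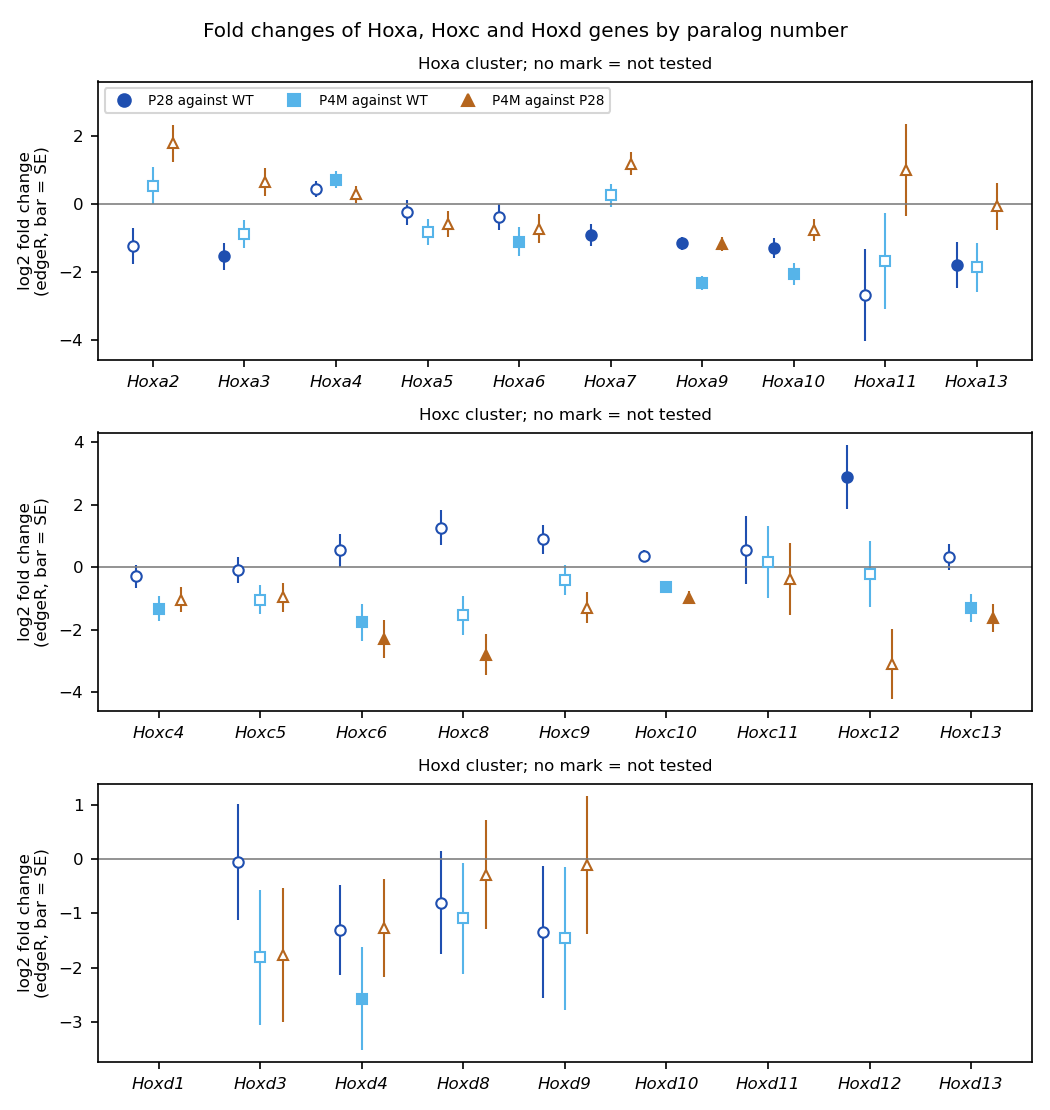
Log2 fold change with its standard error (edgeR) for the tested Hoxa, Hoxc and Hoxd genes reported here, by paralog number, in P28 against WT, P4M against WT and P4M against P28. Filled marks are called at an adjusted p of 0.05, and Hoxa9 is the gene with 3 filled marks.

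Hoxa9 and Hoxa10, the posterior genes of the cluster that mark the upper limb segment, were lower in the p53-deleted clones. Hoxa9 was at 85.1, 106, 85.0, 90.2 and 109 CPM in Fgfr3-WT replicates 1 to 5, at 50.5, 31.6, 57.1, 38.1 and 35.4 CPM in P28 replicates 1 to 5 and at 20.4, 19.8, 12.8 and 22.8 CPM in P4M replicates 1 to 4. The 3 groups did not overlap, with P28 below WT and P4M below P28. No other Hox gene was below all WT clones in all 9 cKO clones, a pattern found in 8.38% of all tested genes. On the log2 scale Hoxa9 changed by -1.16 ± 0.19 (SE) in P28 (edgeR, adjusted p = 0.000557) and -2.32 ± 0.22 (SE) in P4M (adjusted p = 1.35e-05). Between P4M and P28, which carry the same genotype and sample number, it was -1.17 ± 0.21 (SE) (adjusted p = 0.00894), and the call stood in each of the 14 fits that left out 1 clone. Hoxa10 was at 85.1, 237, 126, 182 and 231 CPM in Fgfr3-WT, 102, 48.7, 67.9, 56.5 and 77.9 CPM in P28 and 45.9, 51.2, 25.8 and 43.3 CPM in P4M clones. P4M lay below all WT clones, and in P28 only replicate 1 reached into the WT range, above WT replicate 1. The log2 fold change of Hoxa10 was -1.29 ± 0.29 (SE) in P28 (adjusted p = 0.00424, edgeR) and -2.05 ± 0.33 (SE) in P4M (adjusted p = 0.000358). Neither gene overlaps an annotated gene on the opposite strand.

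Hoxa11, the gene of the segment below the femur, was expressed in every Fgfr3-WT clone and was almost absent from 3 of the 5 P28 clones. Its level was 63.2, 136, 88.9, 141 and 187 CPM in Fgfr3-WT replicates 1 to 5. In P28 it was 27.6 CPM in replicate 1, 0.0717, 0.0596 and 0.121 CPM (3, 3 and 6 counts) in replicates 2, 3 and 4, and 68.9 CPM in replicate 5. The P4M clones were even, at 43.0, 42.3, 31.4 and 36.7 CPM, and all below WT. The groups of P28 and WT clones overlapped in replicate 5 alone, and neither cKO group passed the threshold, with log2 fold changes of -2.67 ± 1.36 (SE) in P28 (adjusted p = 0.136, edgeR) and -1.68 ± 1.42 (SE) in P4M (adjusted p = 0.352). When P4M and WT were fitted alone, without the P28 clones in the estimate of spread, Hoxa11 was called in P4M at -1.69 (edgeR, adjusted p = 0.00268). Without P28 replicate 5, the highest P28 clone, it was called in P28 at -4.18 (adjusted p = 0.0447) and in all cKO against WT at -2.93 (adjusted p = 0.0387). In both comparisons this was the only call in the 14 fits without 1 clone (adjusted p up to 0.191). None of those fits called it in P4M (adjusted p up to 0.459). DESeq2, RLE or no scaling and the other filters called it in no comparison. The antisense transcript Hoxa11os, which overlaps Hoxa11, was at 15.2, 24.5, 19.7, 19.96 and 21.2 CPM in WT, 6.84, 0.0478, 0.119, 0.0805 and 15.4 CPM in P28 and 12.3, 11.6, 10.8 and 16.5 CPM in P4M clones. It was low in the same 3 P28 clones, but the libraries do not keep strand, so reads from the stretch the pair shares cannot be told apart. Per its methods the study counted only reads mapped without ambiguity, so such reads may not have been counted. Neighbouring Hoxa10 and Hoxa13 were at 48.7, 67.9 and 56.5 CPM and 1.67, 1.55 and 0.161 CPM in these clones, so that Hoxa10 was expressed in all 3 and Hoxa13 was near 0 in replicate 4 alone.

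To show the start sites around which these adjacent genes differed, the 200 bases before the annotated start of Hoxa9, Hoxa10 (the upstream of 2 starts) and Hoxa11 are printed 5′ to 3′ on the minus strand, with every CG dinucleotide in capitals. They are RefSeq sequences of GRCm38.p6, at chr6:52227371-52227570, chr6:52240855-52241054 and chr6:52245811-52246010.
Hoxa9: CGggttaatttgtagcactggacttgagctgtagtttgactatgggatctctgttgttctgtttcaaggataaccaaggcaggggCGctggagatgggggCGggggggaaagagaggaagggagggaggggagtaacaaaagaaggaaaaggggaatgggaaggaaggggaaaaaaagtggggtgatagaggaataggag
Hoxa10: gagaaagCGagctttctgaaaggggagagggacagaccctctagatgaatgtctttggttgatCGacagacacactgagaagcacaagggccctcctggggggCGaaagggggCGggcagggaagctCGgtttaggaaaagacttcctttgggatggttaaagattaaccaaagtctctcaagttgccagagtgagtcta
Hoxa11: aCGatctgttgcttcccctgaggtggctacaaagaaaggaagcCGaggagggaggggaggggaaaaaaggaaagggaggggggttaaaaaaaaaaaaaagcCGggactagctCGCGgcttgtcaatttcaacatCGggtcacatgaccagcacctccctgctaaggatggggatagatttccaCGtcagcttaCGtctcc
The printed stretches hold 3, 5 and 8 CG dinucleotides. RefSeq windows of 300 bases, 250 before and 50 after the start, were at hand for 22 of the 39 Hox genes (24 windows). Their median was 14.5 CG dinucleotides per window against 7 over 32851 windows of all genes, and 70.8% of the Hox windows against 43.5% of all windows held at least 10. The letters CCAAT were found on either strand in 62.5% of the Hox windows and 37.4% of all windows, TATAAA in 16.7% and 13.6%, AGGTCA, a half-site of nuclear receptors, in 29.2% and 16.3%, and a match to the p53 half-site consensus in 12.5% and 8.36%. The p53 half-site matches lay in the windows of Hoxa11, Hoxd4 and Hoxd10. None of these motifs is contained in another, and a match is a description of the sequence.

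The remaining Hoxa genes were low to moderate and moved in both directions. Hoxa13, the gene of the distal limb, was at 2.34, 8.53, 4.93, 7.62 and 0.672 CPM in Fgfr3-WT, 1.81, 1.67, 1.55, 0.161 and 1.77 CPM in P28 and 1.52, 2.07, 0.849 and 0.864 CPM in P4M clones. The groups overlapped because WT replicate 5 was low, and P28 replicate 4 was the lowest clone. Its log2 fold change was -1.79 ± 0.67 (SE) in P28 (adjusted p = 0.0479, edgeR), a call that was lost in 12 of the 14 fits without 1 clone, and -1.86 ± 0.73 (SE) in P4M, which just missed the threshold (adjusted p = 0.05004). Hoxa3, an anterior gene best known from the neck and pharynx, was at 19.2, 9.37, 6.10, 7.76 and 23.0 CPM in Fgfr3-WT, 5.20, 3.49, 5.26, 4.09 and 4.43 CPM in P28 and 10.8, 9.30, 3.69 and 4.60 CPM in P4M clones. All P28 clones were below all WT clones, and P4M replicates 1 and 2 were within the WT range. The log2 fold change of Hoxa3 was -1.54 ± 0.40 (SE) in P28 (adjusted p = 0.00851, edgeR) and -0.88 ± 0.42 (SE) in P4M (adjusted p = 0.103).

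Hoxa7 and Hoxa2 were lower in every P28 clone than in every P4M clone. Hoxa7 was at 15.7, 8.41, 11.3, 12.2 and 23.8 CPM in Fgfr3-WT, 5.63, 8.96, 11.9, 4.45 and 6.71 CPM in P28 and 22.9, 14.4, 11.9 and 19.2 CPM in P4M clones. P4M replicate 3 and P28 replicate 3 were almost equal. The gene was called lower in P28 against WT at -0.93 ± 0.32 (SE) (adjusted p = 0.0356, edgeR), a call lost without WT replicate 5 (-0.67, adjusted p = 0.0977) and without P28 replicate 1, 4 or 5, whereas P4M differed from P28 by 1.18 ± 0.34 (SE) (adjusted p = 0.0503). Hoxa2 was at 3.55, 0.918, 0.566, 0.739 and 3.28 CPM, 0.774, 0.502, 0.675, 0.946 and 0.922 CPM and 3.11, 4.09, 1.76 and 1.58 CPM in the same order, again with every P4M above every P28 clone, an order that 9.07% of all tested genes showed. The P4M against P28 difference of Hoxa2 was 1.78 ± 0.55 (SE) (adjusted p = 0.0629, edgeR) and was not called. Hoxa4 was at 1.43, 1.38, 1.41, 0.853 and 1.86 CPM in WT, 1.85, 1.72, 2.11, 1.93 and 1.79 CPM in P28 and 2.49, 2.75, 1.91 and 1.97 CPM in P4M clones. It was the 1 Hoxa gene called higher, at 0.72 ± 0.25 (SE) in P4M (adjusted p = 0.0332, edgeR), a call lost in 5 of the 14 fits without 1 clone. Hoxa6 was at 3.68, 1.15, 1.46, 1.62 and 3.68 CPM, 2.11, 1.53, 2.52, 1.13 and 1.56 CPM and 1.36, 1.09, 0.592 and 1.24 CPM, and its call in P4M at -1.11 ± 0.42 (SE) (adjusted p = 0.0456) was lost in 9 of the 14 such fits. The genes Hoxa3 to Hoxa7 overlap antisense transcripts, and reads from these overlaps cannot be told apart and may not have been counted. The annotated span of Hoxa3 also overlaps Hoxa4, Hoxa5 and Hoxa6 on the same strand, and reads shared between them may not have been counted. Hoxa5 was not called in any comparison, at 4.76 to 23.5 CPM over the clones.

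**Figure D4:**
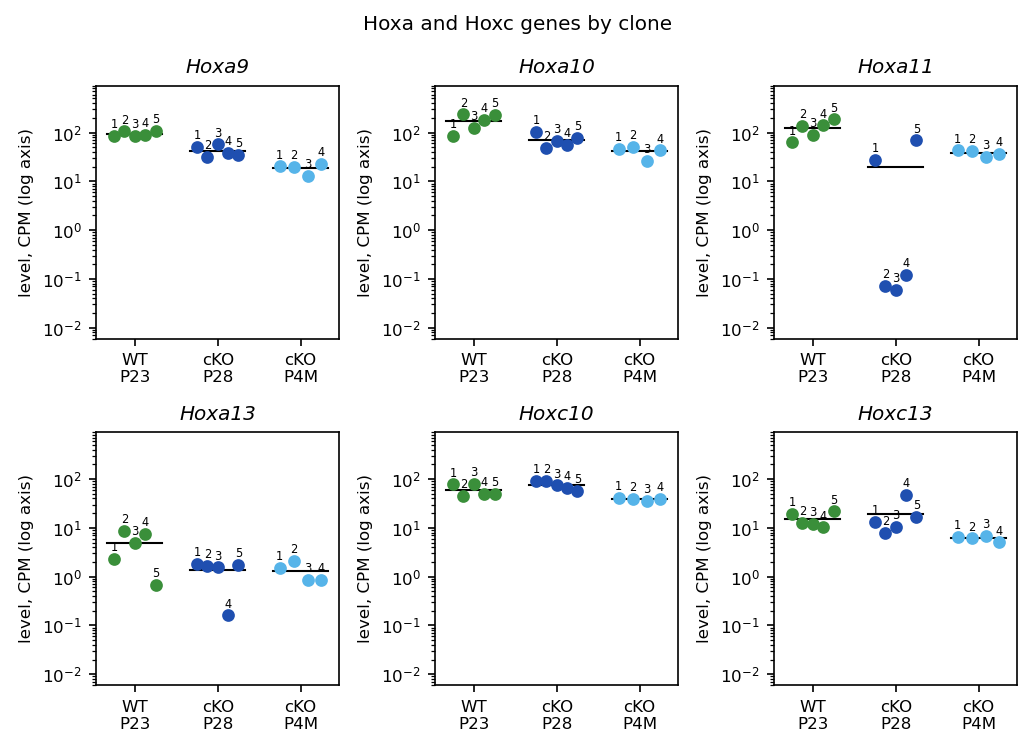
Level in CPM (log axis) of 4 Hoxa and 2 Hoxc genes in every clone, numbered by replicate, with the group mean as a black line. Hoxa9 steps down from 85.0 to 109 CPM in WT to 31.6 to 57.1 CPM in P28 and 12.8 to 22.8 CPM in P4M, and Hoxa11 is at 0.121 CPM or less in 3 P28 clones.

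The Hoxb cluster was not detected in 4 of the 5 Fgfr3-WT clones and was transcribed at a low level in every cKO clone. Fgfr3-WT replicates 1 to 4 held 0 counts over the 10 Hoxb genes in a pooled depth of 120889859 counts, which allows up to 0.0257 CPM per gene. Fgfr3-WT replicate 5 held 89 counts over the cluster. The summed Hoxb level was 1.05 to 23.4 CPM in P28 and 4.10 to 13.5 CPM in P4M clones against 3.52 CPM in WT replicate 5.

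Hoxb9, the paralog of Hoxa9, had the highest TPM of the cluster in 6 of the 9 cKO clones. It was at 0 CPM in Fgfr3-WT replicates 1 to 4 and at 0.0396 CPM (1 count) in replicate 5, at 1.01, 9.27, 4.37, 0.322 and 0.333 CPM in P28 and at 2.10, 4.89, 4.68 and 2.61 CPM in P4M clones. No cKO clone overlapped the WT clones, which was so for 9.73% of all tested genes in the higher direction. Against the 1 WT count the ratio of pooled CPM was 427 in P28 (exact Poisson 95% interval of that count, 76.7 to 16874) and 507 in P4M (90.9 to 20009). Hoxb9 passed the filter on low counts only through the cKO clones, so its calls in P28 and P4M are not given as support. Hoxb4 was at 0 CPM in WT replicates 1 to 4 and 0.316 CPM (8 counts) in replicate 5, at 1.46, 7.65, 1.35, 0.161 and 0.230 CPM in P28 and at 1.01, 2.05, 1.44 and 0.714 CPM in P4M clones. P28 replicates 4 and 5 lay below WT replicate 5, and all P4M clones lay above it. Its log2 fold change was 5.12 ± 1.34 (SE) in P28 and 4.38 ± 1.35 (SE) in P4M (edgeR). Without WT replicate 5 these values were 9.48 and 8.75, where the WT clones were all at 0 and the size depends on the prior count. Like Hoxb9, Hoxb4 passed the filter on low counts only through the cKO clones, so its calls are not given as support.

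Hoxb13, the posterior end of the cluster, had no count in any WT clone. It was at 0.107, 0.741, 0.179, 0.121 and 0.307 CPM in P28 and at 0.553, 0.341, 0.178 and 0.0376 CPM in P4M clones. Its observed mean was 13.8-fold (P28) and 13.1-fold (P4M) the level that 3 counts over the WT group would give, without counting error in the cKO clones. Hoxb13 passed the filter on low counts only through the cKO clones and did not pass it without P28 replicate 2 or 5, so its calls are not given as support. Hoxb2, which was not tested, also had no WT count, and it was at 1.60 CPM in P28 replicate 2 and 3.39 CPM in P4M replicate 3 against 0.159 CPM or less in every other clone. Observed group means of Hoxb2 were 15.7-fold and 42.6-fold the same WT floor, and each rests on that 1 clone. Hoxb3 and Hoxb5 to Hoxb8 reached at most 2.44 CPM, had 0 counts in WT replicates 1 to 4 and 0.356 to 0.949 CPM in WT replicate 5, and were not called. Without that replicate they were called in both cKO groups, so for these 5 genes the comparison depends on it. All WT clones were then at 0 counts and the genes passed the filter only through the cKO clones, so these calls are not given as support. Hoxb1 had 1 count in P4M replicate 4. Where Hoxb2, Hoxb3, Hoxb5 and Hoxb6 overlap antisense transcripts, reads cannot be told apart and may not have been counted. Hoxb4, Hoxb9 and Hoxb13 overlap none.

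**Figure D5:**
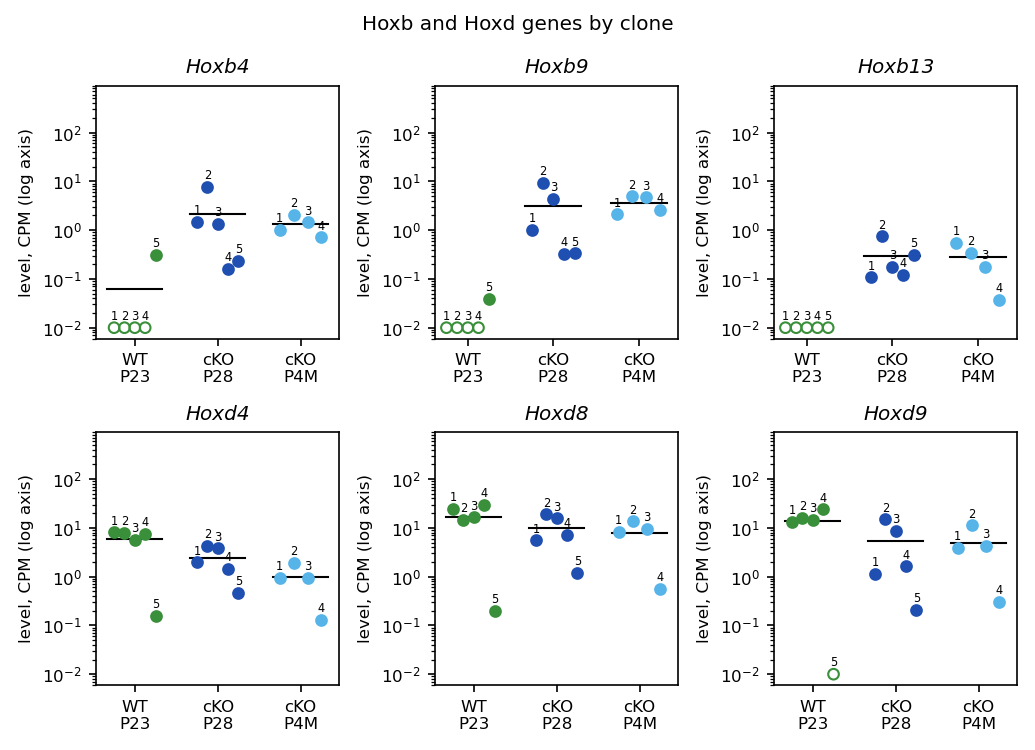
Level in CPM (log axis) of 3 Hoxb and 3 Hoxd genes in every clone, numbered by replicate, with group means as black lines (none where the mean is under 0.01 CPM) and clones with 0 counts drawn as open circles at 0.01. Fgfr3-WT replicate 5 is the 1 WT clone with Hoxb4 and Hoxb9 counts and the lowest WT clone for Hoxd4, Hoxd8 and Hoxd9.

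Hoxc genes, of which the posterior members are typical of the hindlimb, had their highest mean sum in P28 and their lowest and most even in P4M clones. The sums of the P28 clones (121 to 245 TPM) and the Fgfr3-WT clones (66.4 to 168 TPM) overlapped. Hoxc10, the highest in TPM, was at 77.8, 45.0, 79.4, 50.5 and 49.2 CPM in Fgfr3-WT, 92.3, 93.2, 74.1, 65.8 and 57.8 CPM in P28 and 40.9, 39.4, 35.9 and 38.9 CPM in P4M clones. P4M lay below every clone of both other groups, and P28 and WT overlapped. The log2 fold change of Hoxc10 was 0.34 ± 0.19 (SE) in P28 (adjusted p = 0.163, edgeR) and -0.64 ± 0.20 (SE) in P4M against WT (adjusted p = 0.0195, 0.0522 without P4M replicate 3). Hoxc6 was at 35.2, 13.001, 44.8, 9.47 and 25.2 CPM, 57.9, 64.6, 38.0, 15.7 and 8.83 CPM and 7.03, 6.82, 11.2 and 4.96 CPM in the 3 groups. P28 replicates 1 and 2 were above every WT clone, replicates 3 and 4 were within the WT range and replicate 5 was below it. Hoxc6 was called lower in P4M against WT at -1.77 ± 0.59 (SE) (adjusted p = 0.0269, edgeR, lost without WT replicate 3 and without P4M replicate 1, 2 or 4, up to 0.0748).

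P28 replicates 1 to 3 were above every other clone in Hoxc8 and Hoxc9. Hoxc8 was at 7.88, 6.23, 14.3, 3.55 and 2.18 CPM in Fgfr3-WT, 34.0, 23.4, 14.6, 4.83 and 5.20 CPM in P28 and 2.24, 2.73, 2.11 and 2.29 CPM in P4M clones, and Hoxc9 at 15.7, 6.39, 22.2, 6.74 and 5.58 CPM, 30.2, 33.8, 23.8, 8.68 and 8.76 CPM and 7.98, 8.80, 9.22 and 8.17 CPM. Neither passed the threshold against WT in the edgeR fit over all 14 clones. In P28 the log2 fold change was 1.27 ± 0.57 (SE) (edgeR, adjusted p = 0.0938) for Hoxc8 and 0.89 ± 0.46 (SE) (adjusted p = 0.141) for Hoxc9. In P4M the values were -1.54 ± 0.62 (SE) (edgeR, adjusted p = 0.0574) and -0.41 ± 0.49 (SE) (adjusted p = 0.523). Hoxc8 was called in P4M by DESeq2 and when P4M and WT were fitted alone. Both genes were called in P28 without WT replicate 3. At the 5′ end of the cluster P28 replicates 4 and 5 were instead above replicates 1 to 3. Hoxc11, named after its values were seen, was at 0.408, 0.263, 6.00, 22.4 and 14.8 CPM in P28 replicates 1 to 5, at 2.08, 8.99, 10.2, 8.76 and 0.0396 CPM in WT and at 6.23, 7.12, 7.18 and 6.39 CPM in P4M clones. It was near 0 in WT replicate 5 (1 count) and low in P28 replicates 1 and 2, and highest in P28 replicates 4 and 5. Hoxc12, next to it, was at 0.0977, 0.459, 1.29, 0.142 and 0.198 CPM in WT, 1.44, 0.693, 0.457, 10.5 and 2.94 CPM in P28 and 0.484, 0.614, 0.375 and 0.0188 CPM in P4M clones, and Hoxc13, at the 5′ end and known for hair and nails, at 19.3, 12.5, 12.2, 10.2 and 21.8 CPM, 13.2, 7.88, 10.5, 46.7 and 16.7 CPM and 6.52, 6.07, 6.81 and 5.03 CPM. P28 replicate 4 was the highest of the 14 clones in Hoxc11, Hoxc12 and Hoxc13. The call of Hoxc12 in P28 (2.89 ± 1.02 (SE), adjusted p = 0.0386, edgeR) fell to 1.64 (adjusted p = 0.171) without that clone and was lost in 7 of the 14 such fits in all. Hoxc13 was called lower in P4M against WT at -1.31 ± 0.45 (SE) (adjusted p = 0.0305), with all P4M clones below all WT clones, and was lost in 6 of the 14 fits without 1 clone (adjusted p up to 0.079).

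At the anterior end, Hoxc4 was at 16.5, 9.67, 6.02, 3.95 and 6.60 CPM in Fgfr3-WT, 8.81, 7.88, 9.48, 4.75 and 3.89 CPM in P28 and 2.74, 3.39, 3.22 and 4.17 CPM in P4M clones. It was called lower in P4M at -1.34 ± 0.40 (SE) (adjusted p = 0.0151, edgeR), although P4M replicate 4 overlapped WT replicate 4. The call of Hoxc4 in all cKO against WT (-0.82 ± 0.32 (SE), adjusted p = 0.0463) was lost without WT replicate 1, the highest clone (-0.46, adjusted p = 0.187), and in 9 of the 14 such fits in all. Hoxc5, at 1.36 to 10.4 CPM over the clones, was not called. The annotated span of Hoxc5 overlaps Hoxc6 and Hoxc8 to Hoxc10 on the same strand, and reads shared between them may not have been counted for the gene they came from.

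In the Hoxd cluster only Hoxd4, Hoxd8 and Hoxd9 reached more than 5 CPM in any clone, and Fgfr3-WT replicate 5 had almost none of them. Hoxd8 was at 24.4, 14.4, 16.5, 29.2 and 0.198 CPM in Fgfr3-WT, 5.57, 19.0, 15.7, 7.25 and 1.20 CPM in P28 and 8.16, 13.6, 9.63 and 0.563 CPM in P4M clones. Hoxd9, its neighbour, was at 13.3, 15.9, 14.5, 23.8 and 0 CPM, 1.14, 14.9, 8.68, 1.63 and 0.205 CPM and 3.90, 11.3, 4.22 and 0.3005 CPM in the same order. Both genes were lowest in the same clone of each group, namely WT replicate 5, P28 replicate 5 and P4M replicate 4. Neither was called against WT, with log2 fold changes of -0.80 ± 0.95 (SE) and -1.35 ± 1.22 (SE) in P28 (adjusted p = 0.533 and 0.407, edgeR) and -1.09 ± 1.03 (SE) and -1.46 ± 1.32 (SE) in P4M (adjusted p = 0.408 and 0.388). Without WT replicate 5 these 4 values were -1.12, -1.67, -1.41 and -1.78, with adjusted p from 0.18 to 0.264, and still not called. Hoxd4 was at 8.07, 7.92, 5.70, 7.56 and 0.158 CPM, 1.96, 4.25, 3.81, 1.43 and 0.461 CPM and 0.945, 1.93, 0.947 and 0.131 CPM, and WT replicates 1 to 4 lay above every cKO clone. It was called lower in P4M at -2.57 ± 0.95 (SE) (adjusted p = 0.0397, edgeR), a call lost in 7 of the 14 fits without 1 clone but kept without WT replicate 5 (-2.89, adjusted p = 0.0074).

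Since Hoxd8 and Hoxd9 moved together over the clones, the 200 bases before their annotated starts are shown, 5′ to 3′ on the plus strand, with CG dinucleotides in capitals (RefSeq, GRCm38.p6, chr2:74704415-74704614 and chr2:74697563-74697762).
Hoxd8: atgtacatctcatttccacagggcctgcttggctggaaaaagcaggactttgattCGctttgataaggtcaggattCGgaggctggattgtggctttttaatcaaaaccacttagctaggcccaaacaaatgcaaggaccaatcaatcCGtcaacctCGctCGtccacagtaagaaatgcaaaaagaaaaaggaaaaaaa
Hoxd9: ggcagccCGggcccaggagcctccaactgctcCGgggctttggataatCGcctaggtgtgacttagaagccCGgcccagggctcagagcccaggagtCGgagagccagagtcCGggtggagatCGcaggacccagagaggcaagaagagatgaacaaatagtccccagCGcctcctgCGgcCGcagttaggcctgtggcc
They hold 5 and 10 CG dinucleotides. The other Hoxd genes were close to absent. Hoxd3 was at 1.48 CPM or less and was not called. The antisense transcript Hoxd3os1 overlaps Hoxd3, Hoxd4 and Hoxd8, and reads from these overlaps cannot be told apart and may not have been counted. Hoxd10 reached 0.654 CPM, and Hoxd13 reached 0.182 CPM in P4M replicate 2 and had no count in WT. The observed means of Hoxd13 were 1.98-fold (P28) and 4.84-fold (P4M) the level that 3 counts over the WT group would give. They rest on 0 to 4 counts per P28 clone and 0 to 8 per P4M clone, whose counting error is not included. Hoxd1, Hoxd11 and Hoxd12 were at 0.0455 CPM or less in every clone. The posterior Hoxd genes that pattern the distal limb were thus at or near 0 where their Hoxa and Hoxc paralogs were expressed. Summed over each paralog group, paralog 10 was at 203 ± 52.0 TPM in Fgfr3-WT, 148 ± 24.3 TPM in P28 and 70.1 ± 10.9 TPM in P4M clones, paralog 11 at 84.6 ± 30.6, 23.9 ± 27.7 and 32.1 ± 3.46 TPM, and paralog 13 at 12.3 ± 1.93, 15.5 ± 11.3 and 5.13 ± 0.833 TPM (SD).

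The P28 and P4M clones share genotype and sample number and were compared directly to ask how the p53-deleted clones differed by age at isolation. Tamoxifen was given at postnatal day 21 in both groups. Age and time since deletion therefore cannot be told apart in this comparison. Of the 32 tested Hox genes 5 were called, all lower in P4M, where 7.22% of all tested genes were called and 3.88% were called lower. They were Hoxa9, Hoxc6, Hoxc8, Hoxc10 and Hoxc13, and in this fit none was called higher (background 3.34%). Hoxa7 was called higher by edgeR with RLE scaling or with a minimum of 10 counts in 4 clones, and Hoxa2 and Hoxa7 when only the P28 and P4M clones were fitted, beside 7.35% (RLE scaling) and 18.3% (only those clones) of all genes called in either direction. Leaving out 1 clone gave a call of Hoxa2 or Hoxa7 as higher in 5 of 14 fits. At an unadjusted p under 0.05 the number of Hox genes was 11 in either direction, beside 25.8% of all tested genes. Of the 5 called genes Hoxc8 changed most, at -2.81 ± 0.65 (SE) (adjusted p = 0.0246, edgeR), followed by Hoxc6 at -2.30 ± 0.61 (SE) (adjusted p = 0.0379), and these calls were lost in 6 of the 14 and 7 of the 14 fits without 1 clone. The change was -1.64 ± 0.46 (SE) for Hoxc13 (adjusted p = 0.0475, lost in 11 of the 14 such fits and at -0.96 without P28 replicate 4), -0.98 ± 0.20 (SE) for Hoxc10 (adjusted p = 0.0151) and the value above for Hoxa9. Groups did not overlap for Hoxa9, Hoxc8, Hoxc10 and Hoxc13 (background 9.96%). Hoxa9 and Hoxc10 were called in each of the 14 fits that left out 1 clone. The count was 2 without P28 replicate 1 (3.07% of all genes called) or without P4M replicate 1, 2, 3 or 4 (2.70, 2.95, 4.56 and 3.06%), and 3 without P28 replicate 3 (2.90%). DESeq2 called 8 Hox genes, adding Hoxc12 as lower and Hoxa2 and Hoxa7 as higher, beside 14.2% of all genes. Over the tested Hox genes the median log2 fold change was -0.48 in P4M against P28, or -0.74 without the Hoxb genes, and -1.30 over the 9 Hoxc genes, where the median of all tested genes was -0.01. Against WT the median was 0.14 in P28, or -0.32 without the Hoxb genes, and -0.74 in P4M, or -1.10 without them, beside -0.02 and -0.06 for all tested genes.

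Within each group the median spread between clones was larger for the Hox genes than for all tested genes, without matching on level, and in Fgfr3-WT the difference was smaller without replicate 5. The median SD of log2(CPM + 0.1) over the tested Hox genes was 0.902 in Fgfr3-WT, 1.01 in P28 and 0.597 in P4M clones, against 0.493, 0.314 and 0.294 over all tested genes. Without replicate 5 the Fgfr3-WT medians were 0.511 over the Hox genes, of which the 8 tested Hoxb genes were then at 0 in every clone, and 0.481 over all tested genes. Over the other 24 tested Hox genes they were 0.807 with and 0.670 without that clone. A gene with 1 clone under 0.2 CPM and another over 5 CPM in the same group was met in 2.73% of all tested genes within Fgfr3-WT, and among the 32 Hox genes these were Hoxc11, Hoxd4, Hoxd8 and Hoxd9, for each of which WT replicate 5 was the clone under the limit. Without that clone the share of all genes was 1.89% and the number of Hox genes 0. Within P28 the background was 0.841% and the Hox genes were Hoxa11 and Hoxb4, and within P4M it was 0.403% and no Hox gene. The most even Hox genes in P4M were Hoxc10, with an SD of 0.0787, Hoxc9 with 0.0951 and Hoxc11 with 0.105. The same Hoxc11 had an SD of 2.64 in Fgfr3-WT and 2.77 in P28, and Hoxa11 had one of 4.36 in P28.

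Hox proteins act with TALE cofactors, and 4 of the 9 tested TALE genes, 2 higher and 2 lower, passed the test in all cKO against WT. The background for this and the following lists is that 48.8% of all tested genes were called in this comparison, 23.1% higher and 25.7% lower, so a share near these values is not a result about a list. Pknox1, which encodes a Meis-related cofactor, was at 12.9, 8.72, 13.02, 12.7 and 12.5 CPM in Fgfr3-WT, 32.0, 28.1, 25.5, 22.05 and 25.2 CPM in P28 and 35.8, 40.3, 28.4 and 28.1 CPM in P4M clones and rose by 1.31 ± 0.15 (SE) on the log2 scale (adjusted p = 2.27e-05, edgeR). Meis2, a Hox partner of the limb, rose by 1.56 ± 0.48 (SE) (adjusted p = 0.0158), with P28 replicates 1 to 3 highest at 43.2, 97.2 and 86.9 CPM. Pbx2 and Meis3 were lower, at -0.59 ± 0.13 (SE) and -0.71 ± 0.19 (SE) (adjusted p = 0.00247 and 0.00691). In P28 against WT Pknox1, Meis1, Meis2 and Pbx3 were called higher (background 19.2%) and Meis3 lower (19.7%). In P4M against WT Pknox1 was called higher (22.3%) and Pbx2, Pknox2 and Meis3 lower (23.6%). Between P4M and P28, Meis1 and Pbx2 were called lower in P4M (3.88%) and none higher (3.34%). The clones in which Hoxc8 and Hoxc9 were highest, P28 replicates 1 to 3, also had the most Meis1, at 34.9, 22.6 and 22.4 CPM against 4.89 to 16.5 CPM in the other clones, and the most Prrx1, a limb mesenchyme factor, at 789, 561 and 674 CPM against 61.4 and 4.53 CPM in P28 replicates 4 and 5. Meis1 and Prrx1 were picked after their values were seen.

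Genes that flank the clusters moved in both directions. Of 10 tested flanking genes, 1 was higher and 3 were lower in all cKO against WT, beside 48.8% of all tested genes called. Mtx2, beside Hoxd, changed by 0.83 ± 0.15 (SE) on the log2 scale (edgeR, adjusted p = 0.000483). Skap2, beside Hoxa, changed by -0.95 ± 0.14 (SE) (adjusted p = 0.000134) and Snx11, beside Hoxb, by -0.73 ± 0.11 (SE) (adjusted p = 0.000147). Cbx5, the flanking gene with the highest mean CPM at 82.1 to 253 CPM, was not called. Of 6 tested noncoding transcripts of the clusters 1 was called beside the same background, namely Hoxaas2 at -1.05 ± 0.37 (SE) (adjusted p = 0.0309, edgeR). Reads from its overlap with Hoxa3 cannot be told apart and may not have been counted. Hotair, an antisense transcript of Hoxc, was at 2.80 CPM or less.

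Among the chromatin regulators of Hox genes, 10 of 18 Polycomb genes were called in all cKO against WT, 3 higher (background 23.1%) and 7 lower (25.7%). Phc2 and Cbx2, subunits of the complex that compacts chromatin, rose by 1.45 ± 0.20 (SE) and 1.49 ± 0.24 (SE) on the log2 scale (adjusted p = 8.05e-05 and 0.000241, edgeR). Ezh1, a methyltransferase of histone H3 lysine 27, and Ring1, a ubiquitin ligase, were lower at -1.003 ± 0.14 (SE) and -0.75 ± 0.12 (SE) (adjusted p = 0.000112 and 0.000233). Cbx6 had the highest mean CPM, at 104 to 376 CPM, and was not called in that comparison. Of 12 Trithorax and H3K27 demethylase genes 2 were higher and 2 lower, beside 48.8% of all genes called, namely Ash2l (0.83 ± 0.13 (SE), adjusted p = 0.000208, edgeR), Wdr5 (0.79 ± 0.15 (SE), adjusted p = 0.000784), Kmt2c (-0.82 ± 0.17 (SE), adjusted p = 0.00174) and Kmt2b (-0.47 ± 0.18 (SE), adjusted p = 0.0402). Of them Kmt2d had the highest mean CPM, at 78.7 to 438 CPM, and was not called in that comparison. The median log2 fold change was -0.16 in each of the lists, beside -0.05 for all tested genes.

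Retinoic acid is known to switch on anterior Hox genes through receptors of the Rar family. Of 15 tested genes of this pathway 6 were higher (background 23.1%) and 3 lower (25.7%) in all cKO against WT, with a median log2 fold change of 0.88 beside -0.05 for all tested genes. Of the higher genes, Aldh1a2, Rarb, Cyp26a1, Crabp1 and Stra6 had Fgfr3-WT means of 0 to 0.0436 CPM. They passed the filter on low counts only through the cKO clones, so this count and this median are not given as support. Rara was at 19.8, 16.1, 12.9, 8.45 and 19.1 CPM in Fgfr3-WT, 50.2, 38.6, 48.6, 47.0 and 51.3 CPM in P28 and 38.9, 35.6, 42.1 and 48.6 CPM in P4M clones, a change of 1.53 ± 0.19 (SE) (adjusted p = 4.35e-05, edgeR). Rarb was at 0.0765 CPM or less in Fgfr3-WT and at 0.138 to 0.473 CPM in the cKO clones, and its call is not given as support. Aldh1a1, which makes retinoic acid, was at 1.498, 453, 176, 491 and 28.4 CPM in Fgfr3-WT and at 0.0717 to 5.95 CPM in P28 and 0 to 0.0227 CPM in P4M clones (adjusted p = 9.31e-05), with WT replicate 1 inside the P28 range. Dhrs3, which turns retinal back to retinol, was lower at -2.53 ± 0.51 (SE) (adjusted p = 0.00131), and Rarg, with the highest mean CPM at 98.7 to 251 CPM, was not called. The Cdx factors, upstream regulators of central Hox genes, were at or near 0, with Cdx1 at 0.358 CPM or less and no count of Cdx2 or Cdx4. Of 7 mesenchyme markers 3 were higher in all cKO against WT (background 23.1%), among them Prrx2 (1.83 ± 0.30 (SE), adjusted p = 0.000291, edgeR) and Runx2 (1.53 ± 0.26 (SE), adjusted p = 0.000386), and of the 2 tested haematopoietic markers Cd68 was lower at -3.14 ± 0.59 (SE) (adjusted p = 0.000787) and Csf1r higher at 1.58 ± 0.59 (SE) (adjusted p = 0.0383). The 1 tested endothelial marker, Kdr, was at 0 to 0.569 CPM in Fgfr3-WT and at 0.307 to 12.6 CPM in the cKO clones. Kdr and Csf1r passed the filter on low counts through the cKO clones, so their calls are not given as support. No limb identity gene was called. These markers moved with the same group contrast as the Hox genes, and their part in the Hox results was not tested.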

How the data were processed

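RNA of 14 cultured clones had been made into SMART-Seq v4 and Nextera XT libraries, which do not keep strand, and sequenced as single-end reads of 50 bases. The authors aligned reads to mm10 with TopHat and Bowtie2 and counted them with HTSeq, per the paper's methods and the submitters' processing notes, which give no versions of these tools. The deposited table of raw counts was used for all tests. The deposited expected counts were whole numbers equal to the raw counts for all 30503 genes shared, and they supplied the counts of Hoxb1, Hoxd11 and Hoxd12. The deposited TPM, calculated by the authors per gene length, served only to compare levels between genes. Deposited FPKM and DESeq2-normalised tables were not used.

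Genes were filtered with filterByExpr and tested with edgeR 4.0.16 in R 4.3.3 (TMM scaling, robust quasi-likelihood F-test, 1 model over all 14 clones with group as the only term), and p-values were adjusted by Benjamini-Hochberg over 17358 genes at 0.05. Standard errors were the absolute log2 fold change divided by the square root of F. CPM were computed on TMM-scaled totals. Antisense overlaps came from GENCODE M21 and promoter windows from RefSeq. Spread and outlying clones were computed on log2(CPM + 0.1). Totals ranged from 25688946 to 52857424 counts per clone, and intervals and floors (3 counts) cover counting error only, since reads carried no molecular identifiers. No libraries had identical counts. Steps were tested on simulated data. Alternatives were DESeq2 1.42.0, RLE scaling, no scaling, no filter, at least 10 counts in 4 clones, a fit on the compared groups only, a log2 fold change whose size was 1 or more, and leaving out each clone. Cluster shares and spread without Fgfr3-WT replicate 5 were added after seeing the data.

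The Hox genes and the other lists were chosen with earlier results of these data known. Values in every clone were given for the 2 genes per cluster with the highest mean TPM and for Hox genes called in a comparison of 2 groups, up to 20. From each other list the genes with the lowest adjusted p in each direction over all cKO clones, up to 2, and the gene with the highest mean CPM were named. Hoxa2, Hoxa11os, Hoxb2, Hoxc9, Hoxc11, Meis1, Prrx1, Col1a2, Pitx1 and the other genes outside this rule were named after their values were seen. Replicate numbers follow accession order and only name the clones. The values of some members of these lists are not reported here.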

Additional observations from a re-analysis of the deposited data

Results flagged for a closer look

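In 14 of the 105 sets of 1 Hox gene in 1 group, a single clone lay apart from the rest of its group, measured as the gap between that clone and its nearest neighbour divided by the range of the group on the log2(CPM + 0.1) scale. Chance alone gives about 1 in 20 such sets where values are not tied, and genes of a cluster measured in the same clone are not independent. Fgfr3-WT replicate 5 accounted for 10 of them. It was the only Fgfr3-WT clone with counts of Hoxb3, Hoxb4, Hoxb5, Hoxb6, Hoxb7, Hoxb8 and Hoxb9, at 0.949, 0.316, 0.712, 0.672, 0.356, 0.475 and 0.0396 CPM. For these 7 genes the other 4 clones were tied at 0, which fixes the gap at 1.0 of the range for any count above 0. The chance rate therefore applies neither to them nor to the total of 14 that includes them. It was also the low clone for Hoxd4 (gap 0.901), Hoxd8 (0.846) and Hoxd9 (0.895), at 0.158, 0.198 and 0 CPM. Its Hoxb9 level was 1 count.

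P28 replicate 4 was low in Hoxa13, with a gap of 0.927 and a level of 0.161 CPM, and P28 replicate 2 was high in Hoxb2, with a gap of 0.882 and a level of 1.60 CPM. P4M replicate 4 was low in Hoxd8 (gap 0.834, at 0.563 CPM) and Hoxd10 (gap 0.897, at 0.0188 CPM, which is 1 count).

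The effects of the 2 cKO groups against WT differed by the direct test of P4M against P28 for 5 Hox genes, all lower in P4M, where 7.22% of all tested genes were called and 3.88% were called lower, with log2 differences of -1.17 for Hoxa9, -2.30 for Hoxc6, -2.81 for Hoxc8, -0.98 for Hoxc10 and -1.64 for Hoxc13. The calls of Hoxc6, Hoxc8 and Hoxc13 were lost in 7, 6 and 11 of the 14 fits without 1 clone, and those of Hoxa9 and Hoxc10 in none. The P28 and P4M clones differ in age at isolation and in time since tamoxifen. Per the labels, but not the study's methods, they also differ in the range of passages. These differences cannot be told apart.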

How the results depend on the processing

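Of the 36 calls of a Hox gene in a comparison, 19 were also called by DESeq2 and in each other edgeR fit with all clones of the compared groups, and 3 more wherever the gene was tested. In the fits without 1 clone these numbers were 17 and 3. The log2 fold change was smaller in size than 1 for 6 of the 36 calls, and 18 of the 19 reached it. No call changed direction. The number of Hox genes called in P28 against WT was 4 instead of 9 when only those groups were fitted, which tested 24 Hox genes and called 34.0% of all genes instead of 38.9%. In P4M against WT it was 7 instead of 12 with no filter (26.7% of all genes instead of 45.9%), and in P4M against P28 it was 3 instead of 5 with no filter (3.19% instead of 7.22%) and 8 with DESeq2 (14.2%). The cause was not tested. With 1 clone left out the number ranged from 6 to 12 in P28 against WT, from 8 to 17 in P4M against WT, from 2 to 7 in P4M against P28, from 7 to 15 in all cKO against WT and from 10 to 22 among the 3 groups, and the highest values other than 7 came without Fgfr3-WT replicate 5. Hoxb13 passed the filter in 12 of these 14 fits. Without Fgfr3-WT replicate 5, Hoxb3 and Hoxb5 to Hoxb8 had 0 counts in every WT clone and passed it only through the cKO clones. No paired analysis was possible because the labels give the clones no replicate numbers. Depth limits the Hoxb and Hoxd genes near 0 counts.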
